A study of Mus musculus with 18 samples.

Results

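Ccnd1, Ccnd2 and Ccnd3, which encode the D-type cyclins, and Cdkn1a, Cdkn1b, Cdkn2a and Cdkn2b, which encode inhibitors of the kinases those cyclins activate, were taken by gene name from both deposited count tables. These 7 genes stood among 54429 gene names in the table of FLAG-EED cells and 54352 in that of wildtype cells, and all 7 passed the filter on low counts. RNA-seq was done on mouse embryonic stem cells (mESCs) and on embryoid bodies, the aggregates that mESCs form when they differentiate in suspension. K19R cells carry a FLAG-tagged knock-in of EED with lysine 19 replaced by arginine, and FLAG-WT cells carry the FLAG-tagged knock-in of wildtype sequence, so that both lines share the tag. EED belongs to the core of PRC2, the Polycomb complex that methylates histone H3, and the title of the series concerns its acetylation by CBP and P300 in PRC2 targeting and in differentiation. Both lines were sampled as mESCs in LIF with 2i, a pair of inhibitors of MEK and GSK3, at day 0, and as embryoid bodies without LIF and 2i at days 2, 6 and 10. A ninth group held wildtype mESCs without the knock-in, grown in LIF alone. Each of the 9 groups had 2 libraries. How many clones stand behind each line is not stated in the labels.

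D-type cyclins bind CDK4 and CDK6 and start the phosphorylation of the retinoblastoma protein, which lets E2F factors switch on genes for DNA replication. The products of Cdkn2a (p16Ink4a) and Cdkn2b (p15Ink4b) bind CDK4 and CDK6 and keep D-type cyclins off them, while those of Cdkn1a (p21) and Cdkn1b (p27) act mainly on CDK2 complexes. Cdkn2a also encodes p19Arf, which restrains MDM2 and so stabilizes p53, the best known activator of Cdkn1a. Cdkn2a and Cdkn2b are textbook targets of Polycomb repression. Mouse ESCs are known for a short G1 phase, in which D-type cyclins have a small part.

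Cdkn2a and Cdkn2b are neighbours on chromosome 4 of GRCm38, at 89274471 to 89294653 and 89306299 to 89311039, both on the minus strand, with 11645 bases between them. The 250 bases before each of their RefSeq starts (GRCm38.p6) are shown because the data concern these 2 neighbouring genes. Their group levels moved most alike among the 7, by a small margin over pairs that are not neighbours. Capitals mark GGGCGG or its reverse complement, the core of a GC box, which was in 32.7% of 32851 RefSeq windows of that length. Of the 2 Cdkn2a starts, the upstream one is that of p19Arf and the other that of p16Ink4a.
Cdkn2a upstream start, chr4:89294620-89294869, minus strand: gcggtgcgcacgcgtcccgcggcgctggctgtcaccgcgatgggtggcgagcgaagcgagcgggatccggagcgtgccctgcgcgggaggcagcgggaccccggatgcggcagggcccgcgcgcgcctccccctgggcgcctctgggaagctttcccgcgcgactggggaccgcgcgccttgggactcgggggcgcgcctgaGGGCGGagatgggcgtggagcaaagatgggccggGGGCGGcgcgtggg
Cdkn2a downstream start, chr4:89282193-89282442, minus strand: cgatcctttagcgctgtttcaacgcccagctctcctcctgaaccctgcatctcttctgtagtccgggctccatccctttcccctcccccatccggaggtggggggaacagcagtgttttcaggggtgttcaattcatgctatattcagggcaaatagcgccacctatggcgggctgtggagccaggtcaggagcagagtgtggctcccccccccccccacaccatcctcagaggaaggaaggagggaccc
Cdkn2b start, chr4:89311033-89311282, minus strand: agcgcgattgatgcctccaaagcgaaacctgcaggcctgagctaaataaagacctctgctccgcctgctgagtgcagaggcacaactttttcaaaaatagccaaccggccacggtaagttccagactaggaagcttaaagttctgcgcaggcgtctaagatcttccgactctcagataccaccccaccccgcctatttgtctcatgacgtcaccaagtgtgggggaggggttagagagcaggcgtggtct
The upstream Cdkn2a window held 40 CpG, a number reached by 1.31% of the windows, and 2 GC boxes. The downstream window held 7 CpG and the Cdkn2b window 12, against a median of 6 over all windows, and neither held a GC box. None of the 3 windows held CACGTG (in 6.02% of all windows), TTTGGCGC (0.417%) or TATAAA (12.4%), searched on both strands. The counts are summed over each gene name, so p16Ink4a and p19Arf could not be told apart.

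The other 5 genes lie at chromosome 7, 144929931 to 144939925 (Ccnd1, minus strand), chromosome 6, 127125162 to 127152193 (Ccnd2, minus strand), chromosome 17, 47505051 to 47599691 (Ccnd3, plus strand), chromosome 17, 29090976 to 29100727 (Cdkn1a, plus strand) and chromosome 6, 134920401 to 134925513 (Cdkn1b, plus strand). Reads were counted over exons without a strand option. Ccnd1 shares 1100 of its 4709 exonic bases (23.4%) with Oraov1 on the other strand, so part of its count is uncertain. Ccnd3 shares 361 bases with Bysl, Cdkn1a shares 273 with AC167363.2, and Ccnd2 shares 372 with Gm43126 and 368 with 9330179D12Rik.

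The 16 FLAG-EED libraries held 20158077 to 28917558 counts each and the 2 wildtype libraries 14190166 and 37375083. Levels are CPM, counts relative to library size, with trimmed mean of M-values (TMM) scaling. Changes are log2 fold changes ± SE from edgeR's quasi-likelihood test, called at a Benjamini-Hochberg adjusted p under 0.05 over 19092 genes. Summed pluripotent cell markers were 5563 to 5834 CPM in K19R and 5561 to 5652 CPM in FLAG-WT mESCs, so both day 0 groups carried the markers of their label. The lines then differed in cell type markers. At day 2 the summed endoderm markers were 180 to 189 CPM in K19R and 1706 to 1737 CPM in FLAG-WT (0 higher and 9 lower of 10 in K19R), and pluripotent markers 2930 to 3106 CPM in K19R and 3088 to 3119 CPM in FLAG-WT (1 higher, 3 lower of 8). At day 6 the 10 endoderm markers summed to 5504 to 5846 CPM in K19R and 14676 to 14889 CPM in FLAG-WT (0 higher and 9 lower in K19R), and the 8 pluripotent markers to 842 to 904 CPM in K19R and 366 to 443 CPM in FLAG-WT (7 higher, 1 lower). The day 10 sums were 17328 to 18043 CPM in K19R and 29007 to 29455 CPM in FLAG-WT for endoderm (2 higher, 4 lower) and 638 to 795 CPM in K19R and 339 to 358 CPM in FLAG-WT for pluripotent markers (7 higher, 1 lower). Other lists, at lower sums, went the opposite way to endoderm. Fibroblast and mesenchyme markers at day 10 summed to 77.2 to 80.7 CPM in K19R and 13.6 to 17.1 CPM in FLAG-WT (6 higher, 1 lower of 7 tested, with 3 of all 8 at 0 in each FLAG-WT library), neural markers to 32.7 to 41.7 CPM in K19R and 6.21 to 7.92 CPM in FLAG-WT (4 higher, 1 lower of 6), and mesoderm markers to 31.3 to 31.7 CPM in K19R and 6.05 to 8.40 CPM in FLAG-WT (4 higher, 2 lower of 7). In bulk RNA, fewer cells of a type and less RNA per cell cannot be told apart, and the part of these marker differences in the results on the 7 genes was not tested.

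**Figure D1:**
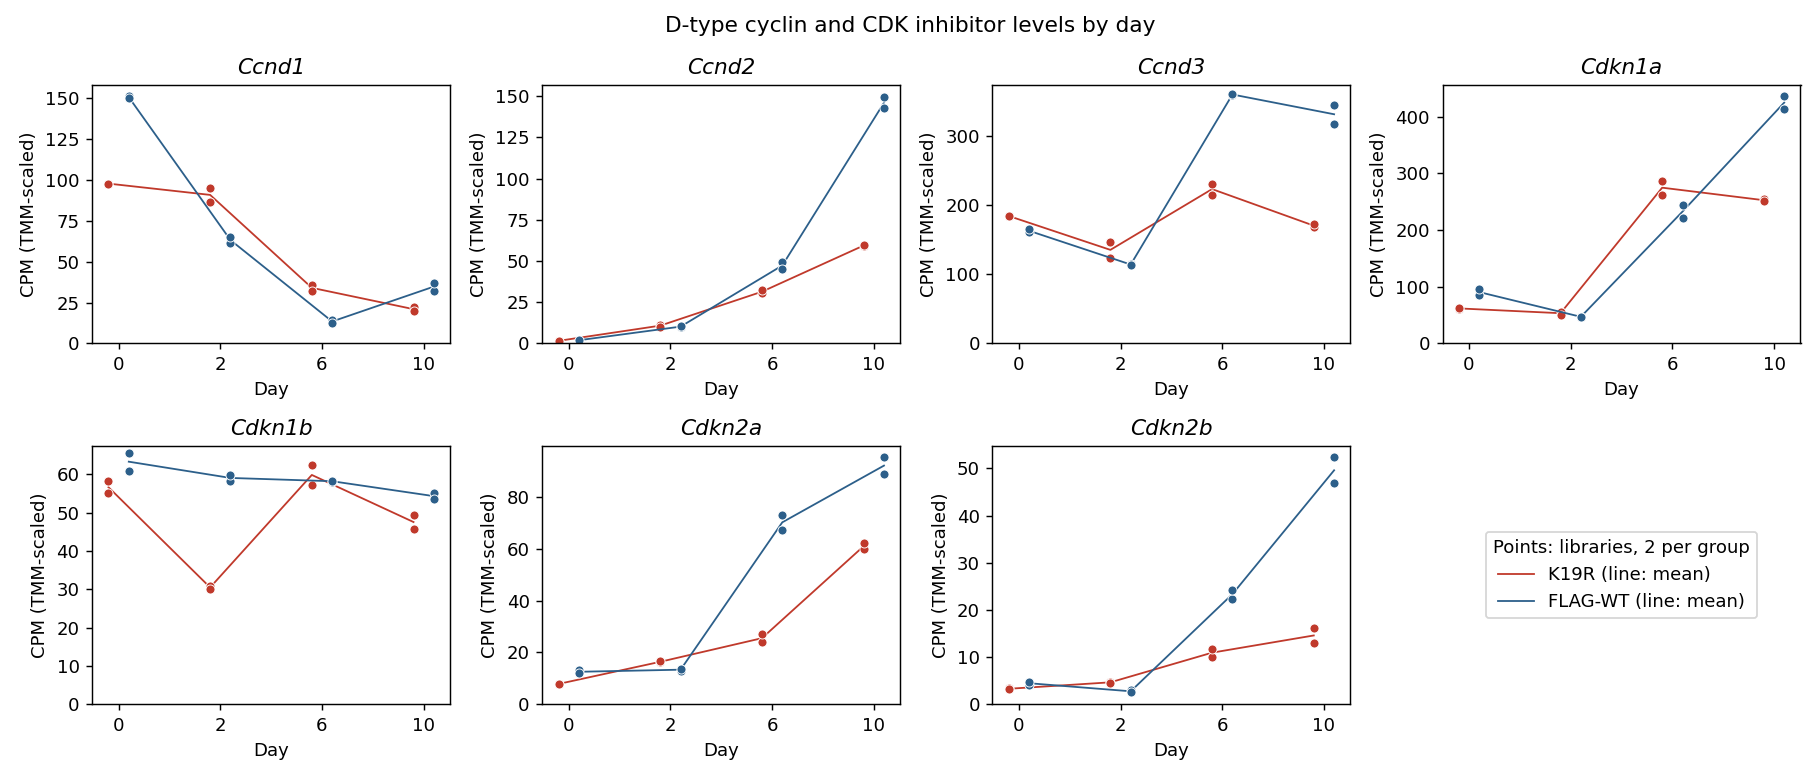
TMM-scaled CPM (vertical axes, from 0) of each of the 7 genes by day (horizontal axis, not to scale in time) in K19R (red) and FLAG-WT (blue), with 1 point per library and a line through the means of 2 libraries. Ccnd1 was highest at day 0 in both lines, and Ccnd2, Cdkn2a and Cdkn2b were highest at day 10.

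Among the D-type cyclins, Ccnd1 fell and Ccnd2 rose during differentiation in both lines, while Ccnd3 fell to day 2 and rose to day 6. Ccnd1 had 97.9 and 97.8 CPM at day 0, 95.4 and 86.5 at day 2, 35.7 and 32.4 at day 6, then 22.2 and 19.8 at day 10 in K19R. In FLAG-WT it had 151 and 150 CPM at day 0, 61.6 and 65.0 at day 2, 14.3 and 12.6 at day 6, then 32.4 and 37.3 at day 10. The groups of the 2 lines did not overlap on any day, and K19R was the lower at days 0 and 10 and the higher at days 2 and 6. Against day 0, Ccnd1 was lower by day 10 in K19R (log2 change -2.22 ± 0.09, edgeR adjusted p = 5.13e-18) and in FLAG-WT (-2.11 ± 0.09, adjusted p = 4.61e-18). Between days 6 and 10 K19R went on falling (-0.69 ± 0.09, adjusted p = 3.38e-07), whereas FLAG-WT reached its lowest level at day 6 (-3.48 ± 0.09 against day 0, adjusted p = 1.26e-21) and rose again by day 10 (1.36 ± 0.10 against day 6, adjusted p = 3.39e-11).

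Ccnd2 had 1.44 and 1.77 CPM at day 0, 11.5 and 10.1 at day 2, 30.4 and 32.4 at day 6, then 58.8 and 60.0 at day 10 in K19R. FLAG-WT had 1.77 and 2.17, 9.95 and 10.5, 49.5 and 45.2, and 149 and 143 CPM of Ccnd2 on those days. It rose at every step in both lines, to day 10 against day 0 by 5.22 ± 0.13 in K19R (edgeR adjusted p = 2.36e-22) and by 6.20 ± 0.12 in FLAG-WT (adjusted p = 1.19e-24). Ccnd3 had 184 and 184 CPM at day 0, 146 and 124 at day 2, 215 and 231 at day 6, then 168 and 172 at day 10 in K19R. In FLAG-WT it had 161 and 165, 114 and 113, 358 and 361, and 317 and 345 CPM on those days. The groups of the 2 lines did not overlap for Ccnd3 on any day, and FLAG-WT was the higher at days 6 and 10.

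Levels were also divided by the exonic bases of each gene, 4709 for Ccnd1, 9409 for Ccnd2 and 8775 for Ccnd3. These lengths cover all annotated exons and not only the transcripts expressed, and part of the Ccnd1 count is uncertain. Shares and sums over the 3 genes are therefore approximate. On that scale Ccnd1 made up 49.6% ± 0.026 of the summed D-type cyclin level in K19R mESCs and 63.1% ± 0.54 in FLAG-WT mESCs (SD, n = 2 each). By day 6 Ccnd1 was 20.1% ± 1.9 of the total in K19R and 5.85% ± 0.49 in FLAG-WT, and Ccnd3 was 70.6% ± 1.7 in K19R and 83.9% ± 1.1 in FLAG-WT. At day 10 Ccnd2 made up 20.9% ± 0.22 in K19R and 25.6% ± 1.9 in FLAG-WT. The summed level at day 10 was 30.2 ± 0.11 CPM per kilobase in K19R and 60.6 ± 2.5 CPM per kilobase in FLAG-WT. With 2 libraries against 2 these sums and shares are given without a test.

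**Figure D2:**
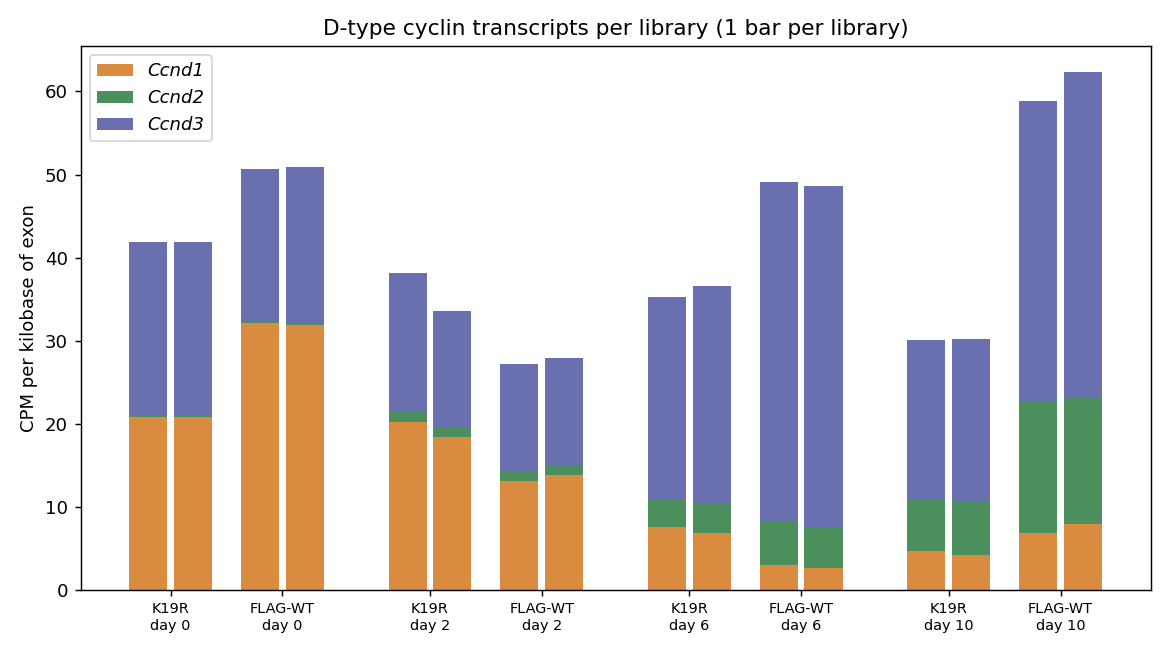
Stacked CPM per kilobase of exon (vertical axis, from 0) of Ccnd1, Ccnd2 and Ccnd3, with 1 bar per library, K19R left of FLAG-WT on each day. The D-type cyclin total at day 10 averaged 30.2 in K19R and 60.6 in FLAG-WT, and Ccnd2 is a thin band at day 0 in both lines.

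The CDK inhibitors Cdkn1a, Cdkn2a and Cdkn2b rose during differentiation in both lines, and Cdkn1b was not called higher at any day against day 0. Cdkn1a had 60.7 and 63.1 CPM at day 0, 56.3 and 50.5 at day 2, 263 and 287 at day 6, then 255 and 251 at day 10 in K19R. In FLAG-WT it had 86.0 and 95.4, 46.7 and 47.4, 245 and 221, and 437 and 413 CPM on those days. Between days 6 and 10 Cdkn1a was not called in K19R (log2 change -0.12 ± 0.07, edgeR adjusted p = 0.15), where library totals alone (adjusted p = 0.0163) or a fit of the compared libraries only (0.025) called it lower, and it rose in FLAG-WT (0.87 ± 0.07, adjusted p = 2.98e-10). Cdkn1b had 55.1 and 58.2 CPM at day 0, 30.9 and 30.1 at day 2, 57.2 and 62.5 at day 6, then 49.4 and 45.8 at day 10 in K19R. FLAG-WT stayed between 53.5 and 65.7 CPM of Cdkn1b on all 4 days. Day 2 in K19R was the one group of the 8 that lay well below the others.

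Cdkn2a had 7.89 and 7.77 CPM at day 0, 16.2 and 16.5 at day 2, 24.0 and 27.0 at day 6, then 59.8 and 62.1 at day 10 in K19R. In FLAG-WT it had 13.04 and 12.01, 13.01 and 13.6, 67.3 and 73.1, and 88.8 and 95.4 CPM on those days. The rise of Cdkn2a to day 2 was called in K19R (1.06 ± 0.10, edgeR adjusted p = 1.54e-09) and not in FLAG-WT (0.09 ± 0.10, adjusted p = 0.454). Cdkn2b had 3.39 and 3.16 CPM at day 0, 4.81 and 4.48 at day 2, 10.1 and 11.8 at day 6, then 16.1 and 13.01 at day 10 in K19R. FLAG-WT had 4.13 and 4.78, 2.97 and 2.52, 22.4 and 24.3, and 46.9 and 52.3 CPM of Cdkn2b. Against day 0, Cdkn2b was higher at day 10 by 2.15 ± 0.15 in K19R (adjusted p = 1.09e-12) and by 3.47 ± 0.14 in FLAG-WT (adjusted p = 2.52e-18). The 2 neighbours had a Pearson correlation of 0.952 over the 8 group means, which share libraries, scaling and the course of differentiation. Pairs on different chromosomes came close, with 0.936 for Ccnd2 and Cdkn2a and 0.934 for Cdkn1a and Cdkn2b. Other genes of the table ran closer still, such as Abcb10 to Cdkn2a (0.993) and Dnajb2 to Cdkn2b (0.994).

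Most genes of the table were called between days, and the 7 genes are read against that. In K19R, day 2 against day 0 had 3 of the 7 genes higher and 3 lower (56.4% of all genes called, 28.5% higher and 27.9% lower). Leaving out any 1 of the 4 libraries reduced these 6 calls to 4 or 5: Cdkn1a lost its call without K19R replicate 1 (adjusted p = 0.0525) or 2 (0.138) of day 0 or replicate 2 of day 2 (0.257), and Cdkn2b without replicate 2 of day 0 (0.0747) or replicate 1 of day 2 (0.0746). Day 6 had 5 higher and 1 lower against day 0 (72.3% called, 37.1% higher and 35.2% lower), and day 10 had 4 higher and 2 lower (73.9%, 38.1% and 35.8%). All 7 were called between days 6 and 2, with 6 higher and 1 lower (66.8%, 34.7% and 32.1%), and the last step, from day 6 on, had 3 higher and 3 lower (58.5%, 33.4% and 25.2%). Of these K19R calls, Cdkn1b at day 10 against day 0 was lost without replicate 2 of day 0 (0.054) or of day 10 (0.0563), and Cdkn2b in the last step without replicate 1 of day 6 (0.0956) or of day 10 (0.156) or with only the compared libraries fitted (0.057). Ccnd3 in K19R was not called at day 10 against day 0 (-0.11 ± 0.07, edgeR adjusted p = 0.156). It was called lower there with RLE size factors (0.0211), library totals alone (0.0146) and DESeq2 (0.0256). In FLAG-WT, day 2 against day 0 had 1 higher and 4 lower (56.1%, 28.5% and 27.6%), day 6 had 5 higher and 1 lower (76.1%, 37.0% and 39.1%) and day 10 had 5 higher and 2 lower (77.9%, 37.0% and 40.9%), of which Cdkn1b lost its call without replicate 1 of day 0 (0.122) or replicate 2 of day 10 (0.052). Its step between days 2 and 6 had 5 higher and 1 lower (72.6%, 35.6% and 37.0%), and the step to day 10 had 5 higher and 0 lower (44.2%, 21.2% and 22.9%). The comparisons with day 0 share the day 0 libraries within a line.

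At day 0, K19R mESCs held less Ccnd1, Cdkn1a and Cdkn2a than FLAG-WT mESCs, and none of the 7 genes was called higher. The log2 changes were -0.62 ± 0.08 for Ccnd1 (edgeR adjusted p = 5.13e-06), -0.55 ± 0.08 for Cdkn1a (adjusted p = 2.05e-05) and -0.68 ± 0.11 for Cdkn2a (adjusted p = 0.00013). These 3 of 7 stood beside 10.5% of all genes called, 5.51% higher and 4.98% lower. Ccnd2, Ccnd3, Cdkn1b and Cdkn2b were not called, with log2 changes of -0.32 ± 0.21, 0.18 ± 0.07, -0.16 ± 0.07 and -0.44 ± 0.18. Fitted on the 4 day 0 libraries alone, 5 of the 7 were called, with Ccnd3 higher and Cdkn1b lower as well, beside 4014 of all genes in place of 2003. Leaving out any 1 of the 4 left the same number of the 7 called, 3, while the count over all genes dropped to between 845 and 955, against 2003 with all libraries. Summed endoderm markers at day 0 were 49.8 and 51.7 CPM in the K19R libraries and 28.5 and 111 CPM in the FLAG-WT libraries.

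At day 2, 4 genes were called higher in K19R and Cdkn1b was called lower, beside 41.8% of all genes (20% higher, 21.8% lower). The log2 change of Cdkn1b was -0.95 ± 0.08 (edgeR adjusted p = 1.44e-10). Ccnd1 was higher by 0.52 ± 0.08 (adjusted p = 7e-06) and Cdkn2b by 0.77 ± 0.17 (adjusted p = 0.00075). Ccnd3 (0.25 ± 0.07, adjusted p = 0.0078) and Cdkn2a (0.29 ± 0.10, adjusted p = 0.0144) were higher by less, and each lost its call when 1 of several libraries was left out: Ccnd3 without FLAG-WT replicate 2 (adjusted p = 0.0648) or K19R replicate 1 (0.237), and Cdkn2a without FLAG-WT replicate 1 (0.104) or 2 (0.0504) or K19R replicate 2 (0.0562). Ccnd2 (0.08 ± 0.11) and Cdkn1a (0.18 ± 0.08, adjusted p = 0.0614) were not called, and Cdkn1a was called with DESeq2 (adjusted p = 0.0372). Moving with these differences at day 2, endoderm markers summed to 180 to 189 CPM in K19R and 1706 to 1737 CPM in FLAG-WT (9 of 10 lower), and fibroblast and mesenchyme markers to 18.8 to 19.2 CPM in K19R and 10.1 to 10.2 CPM in FLAG-WT (5 of 7 tested higher). Their part in the changes of the 7 genes was not tested.

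At day 6, Ccnd1 was higher and the Cdkn2a and Cdkn2b pair lower in K19R than in FLAG-WT, as were Ccnd2 and Ccnd3. In all, 2 genes were called higher and 4 lower, beside 58.5% of all genes (28.4% higher, 30.1% lower). Those shares are 5429 genes higher and 5743 lower, and with library totals alone 8581 were higher and 3189 lower. Ccnd1 was higher by 1.33 ± 0.10 (edgeR adjusted p = 1.03e-11). The log2 changes of the lower genes were -1.46 ± 0.08 for Cdkn2a (adjusted p = 8.86e-14), -1.09 ± 0.12 for Cdkn2b (adjusted p = 2.97e-08), -0.69 ± 0.07 for Ccnd3 (adjusted p = 5.26e-09) and -0.59 ± 0.09 for Ccnd2 (adjusted p = 1.52e-06). Cdkn1a was higher by 0.24 ± 0.07 (adjusted p = 0.00571), and its call was lost without FLAG-WT replicate 2 (0.143) or K19R replicate 2 (0.103). Cdkn1b overlapped between the lines, with a log2 change of 0.04 and a 95% interval of -0.13 to 0.21. Scaled by library totals alone it was called higher (0.40, adjusted p = 6.4e-05).

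At day 10, all 7 genes were called lower in K19R, beside 58.4% of all genes called, 33.2% higher and 25.2% lower. Those shares are 6336 genes higher and 4806 lower, and with library totals alone 9326 were higher and 2785 lower, when 6 of the 7 genes were still called lower. Cdkn2b had the largest log2 change, -1.76 ± 0.12 (edgeR adjusted p = 2.16e-12), followed by Ccnd2 (-1.30 ± 0.08, adjusted p = 5.64e-13) and Ccnd3 (-0.96 ± 0.07, adjusted p = 1.85e-11). Cdkn1a (-0.75 ± 0.07, adjusted p = 1.57e-09), Ccnd1 (-0.73 ± 0.09, adjusted p = 2.41e-07) and Cdkn2a (-0.59 ± 0.08, adjusted p = 4.72e-07) were lower too. Cdkn1b was the weakest (-0.19 ± 0.08, adjusted p = 0.0354): its call was lost without a filter on low counts (0.209), with only the day 10 libraries fitted (0.0889), and without FLAG-WT replicate 1 (0.138) or 2 (0.0707) or K19R replicate 2 (0.222), and with library totals alone its direction turned (0.11, adjusted p = 0.206). The other 6 kept direction and call in every alternative run. At this day the median log2 change of all genes was 0.13.

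**Figure D3:**
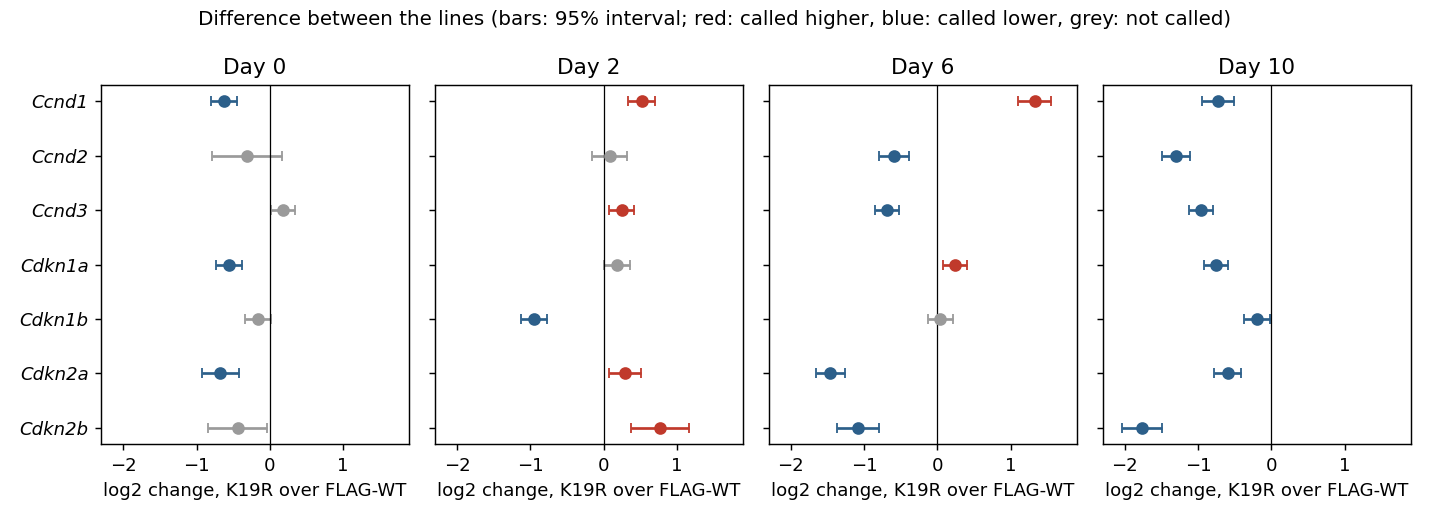
Log2 change of K19R over FLAG-WT (horizontal axes) for the 7 genes on each day, with 95% intervals, red where called higher, blue where called lower and grey where not called. Ccnd1 lies left of 0 at days 0 and 10 and right of 0 at days 2 and 6, and all 7 genes lie left of 0 at day 10.

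The difference between the lines itself changed from day 0. By day 2, 4 of the 7 genes had moved up in K19R relative to FLAG-WT and 1 down (27.1% of all genes called, 12.7% up and 14.4% down). By day 6, 2 had moved up and 3 down (44.5%, 22.1% and 22.4%), and by day 10 none up and 3 down (45.0%, 26.1% and 18.8%). The count to day 10 depended on scaling. Library totals alone also called Cdkn2a (0.41, edgeR adjusted p = 0.0104) and Cdkn1b (0.30, adjusted p = 0.0217) up. RLE size factors also called Cdkn1a down (-0.28, adjusted p = 0.0308). For Ccnd1 the change from day 0 was 1.15 ± 0.11 at day 2 (edgeR adjusted p = 1.48e-08) and 1.95 ± 0.13 at day 6 (adjusted p = 3.56e-12), and at day 10 it was not called (-0.10 ± 0.12, adjusted p = 0.517). For Cdkn2a it was 0.97 ± 0.14 at day 2 (adjusted p = 1.13e-05) and -0.78 ± 0.14 at day 6 (adjusted p = 4.13e-05), and for Cdkn2b 1.21 ± 0.25 (adjusted p = 0.000535) and -0.65 ± 0.22 (adjusted p = 0.0162). The last of these lost its call with library totals alone (adjusted p = 0.332) and without FLAG-WT replicate 1 of day 0 (0.0831), K19R replicate 1 of day 0 (0.0865) or K19R replicate 1 of day 6 (0.067). The 3 tests share the day 0 libraries.

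Of the kinases that D-type cyclins bind, Cdk6 was higher in K19R at day 6 (17.99 ± 1.4 CPM in K19R, 8.62 ± 2.1 in FLAG-WT, log2 change 1.04 ± 0.14, edgeR adjusted p = 2.74e-07) and at day 10 (13.2 ± 0.74 in K19R, 5.81 ± 0.18 in FLAG-WT, 1.18 ± 0.15, adjusted p = 2.03e-07). Cdk6 levels in K19R also lay above those in FLAG-WT at day 0 (5.61 ± 0.22 CPM in K19R, 3.87 ± 0.0040 in FLAG-WT) and at day 2 (17.6 ± 1.4 in K19R, 15.2 ± 0.45 in FLAG-WT). Cdk4 was higher in K19R at day 10 (289 ± 4.5 CPM in K19R, 191 ± 6.8 in FLAG-WT, 0.60 ± 0.06, adjusted p = 1.04e-08). Rb1, the retinoblastoma gene, was lower in K19R at day 10 (20.9 ± 0.55 CPM in K19R, 39.7 ± 2.9 in FLAG-WT, -0.92 ± 0.10, adjusted p = 2.07e-08). Ccne1, whose cyclin E acts after the D-type cyclins, was higher in K19R at day 2 (264 ± 3.6 CPM in K19R, 122 ± 2.5 in FLAG-WT, 1.11 ± 0.06, adjusted p = 1.58e-13). Its level was 158 ± 0.86 CPM in K19R and 126 ± 1.5 in FLAG-WT at day 0. At day 6 the levels were 64.2 ± 0.54 CPM in K19R and 52.2 ± 1.4 in FLAG-WT. Cdkn1c, another CDK inhibitor gene, lay higher in K19R at day 2 (10.2 ± 1.3 CPM in K19R, 6.63 ± 0.31 in FLAG-WT) and day 6 (12.6 ± 2.1 in K19R, 8.41 ± 0.0062 in FLAG-WT). It lay lower in K19R at day 0 (4.70 ± 0.33 in K19R, 5.57 ± 0.23 in FLAG-WT) and day 10 (17.1 ± 1.8 in K19R, 24.4 ± 4.6 in FLAG-WT). The counts of called genes per list stand beside the share of all genes called between the lines, which was 10.5% in mESCs, 41.8% in embryoid bodies of day 2, then 58.5% (day 6) and 58.4% (day 10). Over the 28 genes of the G1/S list, K19R had 2 higher and 1 lower at day 0, then 10 higher, 4 lower at day 2, 9 higher, 6 lower at day 6, then 9 higher, 7 lower at day 10, with a median log2 change of -0.07 at day 10. On each day the number called in either direction was near the share over all genes. The directions differed at day 2, with 10 of the list higher and 4 lower, beside 3818 higher and 4155 lower of all genes. The list then summed to 2400 to 2429 CPM in K19R and 2073 to 2118 CPM in FLAG-WT. Whether the list as a set differed from all genes was not tested.

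Of 13 mitotic and proliferation genes, K19R had 1 lower at day 0, then 2 higher, 2 lower at day 2, 4 higher, 2 lower at day 6 (12 called with library totals alone) and 3 higher, 7 lower at day 10, where the median log2 change was -0.16. At days 0, 2 and 6 the called share was below that of all genes. Cdc20 (-0.80 ± 0.07, edgeR adjusted p = 6.5e-10) and Cdk1 (-0.74 ± 0.06, adjusted p = 3.59e-10) were lower at day 10, and Mki67 was higher (0.55 ± 0.10, adjusted p = 3.2e-05).

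Trp53, the gene of p53, was higher in K19R at day 10 (195 ± 9.8 CPM in K19R, 107 ± 3.2 in FLAG-WT, log2 change 0.87 ± 0.07, edgeR adjusted p = 3.15e-11), while Mdm2, both a target and an inhibitor of p53, was lower (237 ± 7.5 CPM in K19R, 393 ± 19 in FLAG-WT, -0.73 ± 0.07, adjusted p = 8.31e-10). Trp53 was at 641 ± 7.4 CPM in K19R and 717 ± 8.3 in FLAG-WT at day 0. Its levels were 576 ± 14 in K19R and 444 ± 1.4 in FLAG-WT at day 2, then 207 ± 0.17 and 131 ± 7.0 at day 6. Of 16 genes of the p53 list, which leaves out Cdkn1a, K19R had 8 higher, 3 lower at day 2, the same counts at day 6, and 3 higher, 11 lower at day 10, where the median was -0.50. Perp (-2.62 ± 0.08, adjusted p = 4.01e-19), Pmaip1 (-2.17 ± 0.10, adjusted p = 6.19e-16), Bbc3 (-1.41 ± 0.09, adjusted p = 7.56e-13) and Btg2 (-0.99 ± 0.08, adjusted p = 1.73e-10) had the largest of those changes. In mESCs 1 was higher and 3 were lower.

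Ccnd1 is a known target of ERK and WNT signalling. Of 15 ERK feedback genes and targets, K19R had 1 higher, 4 lower at day 0, then 5 higher, 5 lower at day 2, 1 higher, 10 lower at day 6, then 5 higher, 10 lower at day 10, with medians of -0.59 at day 6 and -1.22 at day 10. The immediate early gene Fos was lower at day 10 (17.7 ± 1.6 CPM in K19R, 172 ± 11 in FLAG-WT, log2 change -3.28 ± 0.10, edgeR adjusted p = 4.01e-19). Of 10 tested WNT targets, 1 was lower at day 0, 4 were higher and 1 lower at day 2, and 7 were higher with none lower at both later days, with medians of 0.82 and 1.86. Axin2, a feedback inhibitor of the pathway, was higher at day 10 (11.98 ± 0.26 CPM in K19R, 2.54 ± 1.0 in FLAG-WT, 2.24 ± 0.18, adjusted p = 5.33e-11).

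Of 10 tested repressors and neighbours of Cdkn2a and Cdkn2b, K19R had 1 higher, 6 lower at day 2, 2 higher, 5 lower at day 6, then 5 higher, 1 lower at day 10, where the median was 0.18. At day 0 edgeR called 0 of the 10 and DESeq2 0, with 1 at an unadjusted p under 0.05. Bmi1, a Polycomb repressive complex 1 subunit known to repress Cdkn2a, was lower in K19R at day 2 (18.4 ± 0.12 CPM in K19R, 26.3 ± 2.1 in FLAG-WT, log2 change -0.52 ± 0.11, edgeR adjusted p = 0.000404) and higher at day 10 (18.6 ± 0.38 CPM in K19R, 6.94 ± 1.1 in FLAG-WT, 1.42 ± 0.13, adjusted p = 1.31e-09). Ezh2, the catalytic subunit of PRC2, was lower at day 6 (-0.57 ± 0.07, adjusted p = 6.29e-08). Mtap, a metabolic enzyme gene beside Cdkn2a, fell during differentiation while Cdkn2a rose: its log2 change at day 10 against day 0 was -1.27 ± 0.08 in K19R (adjusted p = 2.77e-14) and -1.43 ± 0.08 in FLAG-WT (adjusted p = 2.37e-15).

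**Figure D4:**
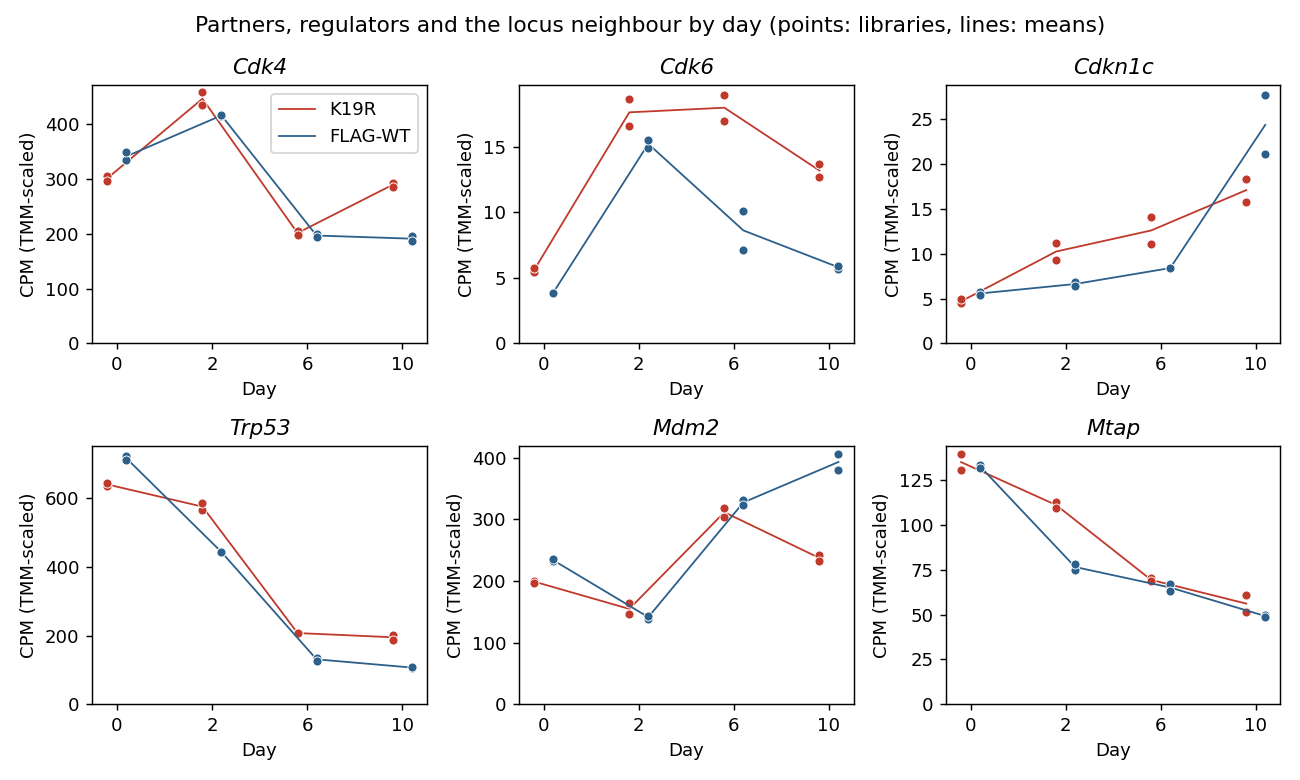
TMM-scaled CPM (vertical axes, from 0) of Cdk4, Cdk6, Cdkn1c, Trp53, Mdm2 and Mtap by day in K19R (red) and FLAG-WT (blue), with 1 point per library and a line through the means. Cdk6 was above FLAG-WT in K19R on each day, and Trp53 fell in both lines.

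Wildtype mESCs in LIF held far more Ccnd2 than FLAG-WT mESCs in LIF with 2i, and less of the other 6 genes. Ccnd2 had 32.0 and 32.9 CPM in wildtype and 1.79 and 2.20 CPM in FLAG-WT mESCs (log2 change 4.02 ± 0.13, edgeR adjusted p = 2.25e-20). The groups lay far apart. Cdkn1a (-1.05 ± 0.08, adjusted p = 2.47e-12), Ccnd1 (-0.99 ± 0.08, adjusted p = 8.54e-12), Cdkn2a (-0.84 ± 0.11, adjusted p = 1.31e-07), Cdkn2b (-0.50 ± 0.17, adjusted p = 0.0136), Cdkn1b (-0.37 ± 0.08, adjusted p = 0.000149) and Ccnd3 (-0.30 ± 0.07, adjusted p = 0.000917) were lower. With 1 higher and 6 lower, all 7 were called, beside 64.9% of 19296 genes (32.4% higher, 32.5% lower). Without wildtype replicate 2, Ccnd3 (adjusted p = 0.0526) and Cdkn2b (0.221) lost their calls, and Cdkn2b also without FLAG-WT replicate 2 (0.134). Cdk6 was higher in wildtype mESCs as well (39.7 ± 2.2 CPM in wildtype, 3.92 ± 0.0032 in FLAG-WT, 3.35 ± 0.14, adjusted p = 7.19e-18). Of 15 ERK genes, 12 were higher and 1 lower in wildtype mESCs. Cell type markers moved in the same comparison: fibroblast and mesenchyme markers summed to 115.6 to 123.2 CPM in wildtype and 13.6 to 14.3 CPM in FLAG-WT mESCs (6 higher, 0 lower of 7 tested), pluripotent markers to 4020 to 4113 CPM in wildtype and 5561 to 5652 CPM in FLAG-WT (2 higher, 6 lower of 8), and endothelial and blood markers to 97.9 to 102 CPM in wildtype and 355 to 366 CPM in FLAG-WT (2 higher, 3 lower of 7). Their part in the changes of the 7 genes was not tested. Knock-in, medium and table differ together here and cannot be told apart.

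**Figure D5:**
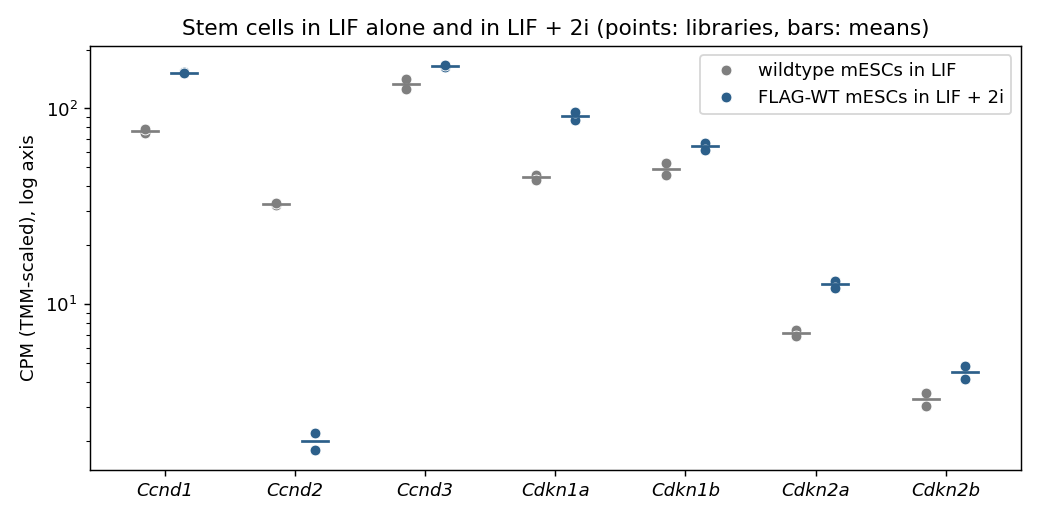
TMM-scaled CPM on a log axis of the 7 genes in wildtype mESCs in LIF (grey) and FLAG-WT mESCs in LIF with 2i (blue), with 1 point per library and a bar at the mean. Ccnd2 is the one gene with the wildtype libraries above, at 32.0 and 32.9 CPM against 1.79 and 2.20.

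The genes whose levels ran most like each of the 7 over the 8 FLAG-EED group means, by Pearson correlation among 19091 others, were Dyrk3 for Ccnd1 (0.990), Cbfa2t3 for Ccnd2 (0.995), Setd6 for Ccnd3 (0.992), Fam110a for Cdkn1a (0.990), Abcb10 for Cdkn2a (0.993) and Dnajb2 for Cdkn2b (0.994). The closest to Cdkn1b was Tmem63c, at 0.894. Among the 7 genes only, Ccnd1 had its most negative correlation with Cdkn2a (-0.848), and with Cdkn1b it had next to none (-0.110). These are descriptions over group means that share libraries and scaling.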

How the data were processed

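RNA-seq counts of 18 libraries in 9 groups of 2 were used. Read pairs had been counted per gene name by the authors, with no scaling, using featureCounts 1.6.3 (FLAG-EED table) and 1.6.4 (wildtype table) over exons of GENCODE vM19 on GRCm38, keeping pairs with both ends mapped and no chimeric pairs, with no strand option, per the file headers. STAR 2.7.0c, Trim Galore 0.6.0, FastQC 0.11.7 and bcl2fastq 2.17 are listed in the submitters' processing notes. Per the labels' protocols, mESCs grew on gelatin and embryoid bodies on a rotary shaker, and RNA from an RNeasy kit went into a VAHTS Total RNA-seq kit.

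Genes were kept with filterByExpr, with a minimum count of 10, applied as a CPM cutoff, and of 15 in total. The cutoff had to be met in as many libraries as a group holds, so a gene found in a single group could pass. Counts were scaled by TMM and fitted with edgeR 4.0.16 in R 4.3.3 (glmQLFit, then the two-sided glmQLFTest, Benjamini-Hochberg over all genes, threshold 0.05). The 16 FLAG-EED libraries entered 1 fit (19092 genes, 8 residual degrees of freedom), and the wildtype comparison a fit of all 18 libraries (54352 shared names, 19296 genes tested, 9 degrees of freedom). There were 18 comparisons. The SE is the absolute log2 change over the square root of F. The test was tried on simulated counts with known changes under 20 fixed random seeds: sizes and directions were recovered and false calls stayed near the threshold, but changes of the smaller simulated size were often missed. In those counts all libraries shared a single mean profile and spread, and few genes changed, evenly up and down, in 1 group. The broad changes and uneven scaling of the real libraries were absent, so the trial cannot give the rate of false calls in them. Pass marks set earlier for a single seed, first on the share recovered and then on false calls, were not met and were dropped in favour of giving all seeds.

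The 7 genes, the gene lists and the rule for named genes (all 7, fixed partners, up to 4 called genes of each list by size of change, the most alike genes) were chosen with earlier results of these data known. Of the fixed partners, Cdk2, Cdkn2c and Cdkn2d are left without values here. Chi-square per degree of freedom between the replicates of a group was 2.36 to 12.3, above sampling noise in all 9 groups. Nothing in the labels shows that they are separate cultures, so the spread behind each p-value may be technical. Alternatives were other scalings, no filter, DESeq2 1.42.0, fits of the compared libraries only, a replicate block and leaving out each replicate. Promoter sequences are from RefSeq, GRCm38.p6, matched by symbol for 5 of the 7 genes.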

Additional observations from a re-analysis of the deposited data

Results flagged for a closer look

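For the 13 results given here, the difference between K19R and FLAG-WT itself changed between day 0 and a later day, by a test of that change in edgeR with adjusted p over all genes. From day 0 to day 2 it moved by 1.15 on the log2 scale for Ccnd1, 0.74 for Cdkn1a, -0.79 for Cdkn1b, 0.97 for Cdkn2a and 1.21 for Cdkn2b. From day 0 to day 6 it moved by 1.95 for Ccnd1, -0.87 for Ccnd3, 0.79 for Cdkn1a, -0.78 for Cdkn2a and -0.65 for Cdkn2b. The call of Cdkn2b to day 6 was lost with library totals alone (adjusted p = 0.332) and on leaving out any of 3 single libraries (0.067 to 0.0865). From day 0 to day 10 it moved by -0.98 for Ccnd2, -1.14 for Ccnd3 and -1.32 for Cdkn2b. A positive value means that K19R moved up relative to FLAG-WT. Groups of 2 libraries were too small to look for a single outlying library.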

How the results depend on the processing

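Of 1344 values of the 7 genes under the alternatives, 1283 kept direction and side of the threshold, 31 lost the call, 17 gained one and 13 turned in direction. Scaled by library totals alone, the direction turned for Cdkn1b between the lines at day 10 (0.11). It also turned for the change of the difference from day 0 of Ccnd2 to day 6 (0.11) and of Ccnd1 (0.23), Cdkn1a (0.13) and Cdkn1b (0.30) to day 10. For the change to day 10, 5 of the 7 genes were called in place of 3, and 9860 of all genes in place of 8584. Cdkn2a (0.41, edgeR adjusted p = 0.0104) and Cdkn1b (0.30, adjusted p = 0.0217) gained these calls, each up in K19R. Of all genes, 7921 were then up and 1939 down, against 4991 up and 3593 down in the fit reported. That scaling moved the median of all genes between the lines by 0.36 at day 6 and 0.30 at day 10. Of the genes called between the lines at day 6, 72.91% were then higher in K19R, against 48.59% in the fit reported. With RLE size factors the change of Cdkn2a to day 10 turned (-0.000948). Leaving out 1 library gave both directions for the change of Cdkn1b to day 10 (-0.080 to 0.026), that of Ccnd1 to day 10 (-0.20 to 0.0067), that of Ccnd3 to day 2 (-0.054 to 0.19), Cdkn1b between the lines at day 6 (-0.025 to 0.11) and Ccnd2 at day 2 (-0.014 to 0.18), none of them called in the fit reported. With only the day 0 libraries fitted, 5 genes were called between the lines at day 0 in place of 3, and 4014 of all genes in place of 2003, whereas leaving out 1 day 0 library gave 845 to 955. Leaving out 1 replicate lowered the number of the 7 genes called between the lines at days 2, 6 and 10 in some runs. It also lowered that number in K19R at day 2 against day 0. The number called over all genes fell in each of these runs too. The cause was not tested. The other genes named in the report with a log2 change kept direction and call in 220 of 220 values, and the counts of called genes per list stayed within 1.5 times in 559 of 600. A replicate block changed 0 of 126 calls, and same-numbered samples did not deviate together (28 pairs of groups, r -0.030 to 0.048). No pairing by number was seen in the counts, which cannot show whether same-numbered samples were handled together. Depth limits mainly Ccnd2 at day 0 (38 to 55 counts per library) and Cdkn2b, which had 69 and 73 counts in FLAG-WT at day 2, 68 to 121 at day 0 and 54 in 1 wildtype library.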
